A study of Mus musculus with 12 samples.

Results

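The genes described here are 35 genes of skeletal muscle, the striated muscle that moves the body, out of 19938 genes measured on arrays of mouse skin. They were chosen by symbol, each through a probe set annotated to that single symbol, and where a gene had several, the one with the highest mean in these 12 arrays was to be taken. All 35 were measured, each by 1 probe set. They comprise 7 genes of slow fibres, 13 genes of fast fibres, 8 genes of thin filaments, Z discs and giant filament proteins, 2 calcium channel genes and 5 genes of energy and oxygen supply. Female Balb/c mice received an intradermal injection of RNAdjuvant, an immunostimulatory RNA preparation, at a labelled dose of 25 mg. Skin biopsies were taken from untreated mice and at 1.5 h, 6 h and 24 h after injection, with 3 arrays in each of the 4 groups. The untreated mice received no injection, so the needle, the injected fluid and the RNA cannot be told apart in any comparison with them. Values are log2 intensities, and a difference of 1 is a doubling of the signal. The labels call the replicates biological but do not say whether a biopsy came from 1 mouse.

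Striated muscle contracts in sarcomeres, in which myosin filaments pull on actin filaments anchored at Z discs. Calcium binding to the troponin complex permits the pull. Slow fibres use their own isoforms of myosin and troponin and work aerobically, whereas fast fibres use a separate set and rely more on glycolysis. Beneath mouse skin lies the panniculus carnosus, a thin sheet of striated muscle made mostly of fast fibres, and a skin biopsy can hold this sheet and sometimes deeper muscle. In a bulk sample, fewer cells of a type and less RNA per cell cannot be told apart.

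Proximal promoters of 4 of the genes are shown because they include slow and fast genes of troponin C (Tnnc1, Tnnc2) and of the myosin light chains (Myl3, Mylpf). The slow and the fast genes behaved differently between the arrays. Tnnc1 encodes the troponin C of slow and cardiac muscle and Tnnc2 that of fast muscle. Myl3 encodes the slow essential light chain and Mylpf the fast regulatory light chain, so they are not direct counterparts. Each window runs from 250 bases before to 50 bases after the RefSeq start of the gene on GRCm38.p6. The windows are chr14:31208062-31208361 on the plus strand for Tnnc1, chr2:164779685-164779984 on the minus strand for Tnnc2, chr9:110763428-110763727 on the plus strand for Myl3 and chr7:127211358-127211657 on the plus strand for Mylpf. Capitals mark the E-box letters CANNTG, which read the same way on both strands and are the letters bound by myogenic factors such as MyoD.

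Tnnc1: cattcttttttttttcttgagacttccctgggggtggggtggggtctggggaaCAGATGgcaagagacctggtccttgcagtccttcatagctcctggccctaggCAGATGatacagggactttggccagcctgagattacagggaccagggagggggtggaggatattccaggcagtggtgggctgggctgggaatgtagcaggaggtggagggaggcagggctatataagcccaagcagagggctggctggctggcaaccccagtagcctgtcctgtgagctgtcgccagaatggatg

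Tnnc2: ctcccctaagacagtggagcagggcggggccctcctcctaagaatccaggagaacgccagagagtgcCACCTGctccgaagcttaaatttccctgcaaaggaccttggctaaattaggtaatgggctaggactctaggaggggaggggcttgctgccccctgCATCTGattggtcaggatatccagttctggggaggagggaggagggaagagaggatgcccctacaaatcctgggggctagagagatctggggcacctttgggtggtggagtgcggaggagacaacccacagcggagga

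Myl3: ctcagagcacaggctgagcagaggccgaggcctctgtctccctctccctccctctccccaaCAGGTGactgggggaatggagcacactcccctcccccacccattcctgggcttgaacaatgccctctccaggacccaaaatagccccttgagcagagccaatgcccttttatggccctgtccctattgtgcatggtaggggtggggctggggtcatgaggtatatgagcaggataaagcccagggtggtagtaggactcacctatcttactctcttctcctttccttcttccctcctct

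Mylpf: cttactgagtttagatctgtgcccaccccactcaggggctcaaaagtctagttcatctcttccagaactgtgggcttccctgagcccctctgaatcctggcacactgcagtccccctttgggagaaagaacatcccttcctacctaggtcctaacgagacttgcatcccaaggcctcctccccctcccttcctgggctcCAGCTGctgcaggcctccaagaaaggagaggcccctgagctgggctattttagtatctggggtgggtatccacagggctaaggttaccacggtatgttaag

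Tnnc1 and Tnnc2 each held 2 E-boxes, and Myl3 and Mylpf each held 1. None of these 4 windows matched the MEF2 motif on either strand. RefSeq windows were found for 28 of the 35 genes, 34 windows in all. E-box letters were present in 85.3% of those 34 windows and in 72.3% of 32851 windows of the same length. The slow fibre genes held them in 10 of 10 windows, from 7 genes, and the fast fibre genes in 7 of 10, from 9 genes. Some genes thus count with more than 1 window. The MEF2 motif, bound by the myocyte enhancer factors and searched on both strands, was present in 17.6% of the muscle windows and 1.86% of all windows. It was found in 1 of 10 slow windows and 3 of 10 fast windows. The letters CATTCC, the MCAT element bound by TEAD factors, were present on either strand in 29.4% of the muscle windows and 14.7% of all windows. These counts describe letters in the windows and show no binding.

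Array medians over all probe sets lay between 5.53 and 5.76. Over the same probe sets, arrays of 1 group correlated at 0.980 to 0.987 and arrays of different groups at 0.961 to 0.986. A pair of libraries, 1.5 h replicate 1 and 6 h replicate 1, stood apart by a high signal of lymph node and B cell genes and are left out together in 1 alternative below. The median residual standard deviation, the spread within groups, was 0.16 over all genes and 0.40 over the 35 muscle genes. It was 1.38 over the slow fibre genes and 0.30 over the fast fibre genes. The slow fibre genes thus varied more within groups than the other genes did, and the arrays are given singly before the groups are compared.

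The slow fibre genes were high in 4 of the 12 libraries, 1.5 h replicates 1 and 2 and 24 h replicates 1 and 3, and close to the untreated level in most others. Myl2, the slow regulatory myosin light chain, had values of 4.65, 5.06 and 5.01 in the untreated arrays, 10.56, 10.43 and 5.38 at 1.5 h, 4.66, 4.60 and 6.88 at 6 h, and 10.57, 4.29 and 9.33 at 24 h. Its highest and lowest arrays thus differed by 6.27, a factor of 77.3. The untreated arrays lay within 0.41 of each other, and both extremes came from the 24 h group.

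Tnnc1 gave 4.76, 4.72 and 4.69 in untreated skin, 10.17, 10.19 and 4.95 at 1.5 h, 4.77, 5.23 and 6.55 at 6 h, and 10.58, 4.67 and 9.31 at 24 h. As for Myl2, those 4 libraries were the highest, with a span of 60.3-fold over the 12 arrays. Myl3 measured 5.17, 5.20 and 5.06 in untreated skin, 9.34, 9.20 and 5.24 at 1.5 h, 4.89, 4.89 and 5.92 at 6 h, and 9.61, 4.92 and 8.22 at 24 h. Myh7, the slow myosin heavy chain, stood at 4.99, 5.06 and 4.65 in untreated skin, 8.02, 8.12 and 4.84 at 1.5 h, 4.75, 5.04 and 6.08 at 6 h, and 8.43, 4.65 and 6.26 at 24 h. Over these 4 genes the difference from the untreated mean was -0.06 to 0.48 in the third 1.5 h array and -0.61 to -0.06 in the second 24 h array.

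Tnnt1 and Tnni1, the slow troponins T and I, spanned 3.63 and 3.60 over the 12 arrays. Myoz2, a calcineurin-binding Z disc protein of slow fibres, spanned 2.10, with 7.98, 7.95 and 7.77 in untreated skin, 9.58, 9.68 and 8.66 at 1.5 h, 7.81, 7.97 and 8.32 at 6 h, and 9.44, 7.58 and 8.75 at 24 h. In the third 1.5 h array the value was above all 3 untreated arrays in 6 of the 7 slow fibre genes, where 33.1% of all genes were, and for Myoz2 it exceeded the untreated mean by 0.76. In 7 of 7 slow fibre genes the 3 highest arrays were 1.5 h replicates 1 and 2 and 24 h replicate 1, the fourth was 24 h replicate 3, and in 6 of 7 the fifth was 6 h replicate 3. The residual standard deviations of these genes lay between percentile 99.2, for Myoz2, and percentile 99.995, for Myl2, of all genes.

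**Figure D1:**
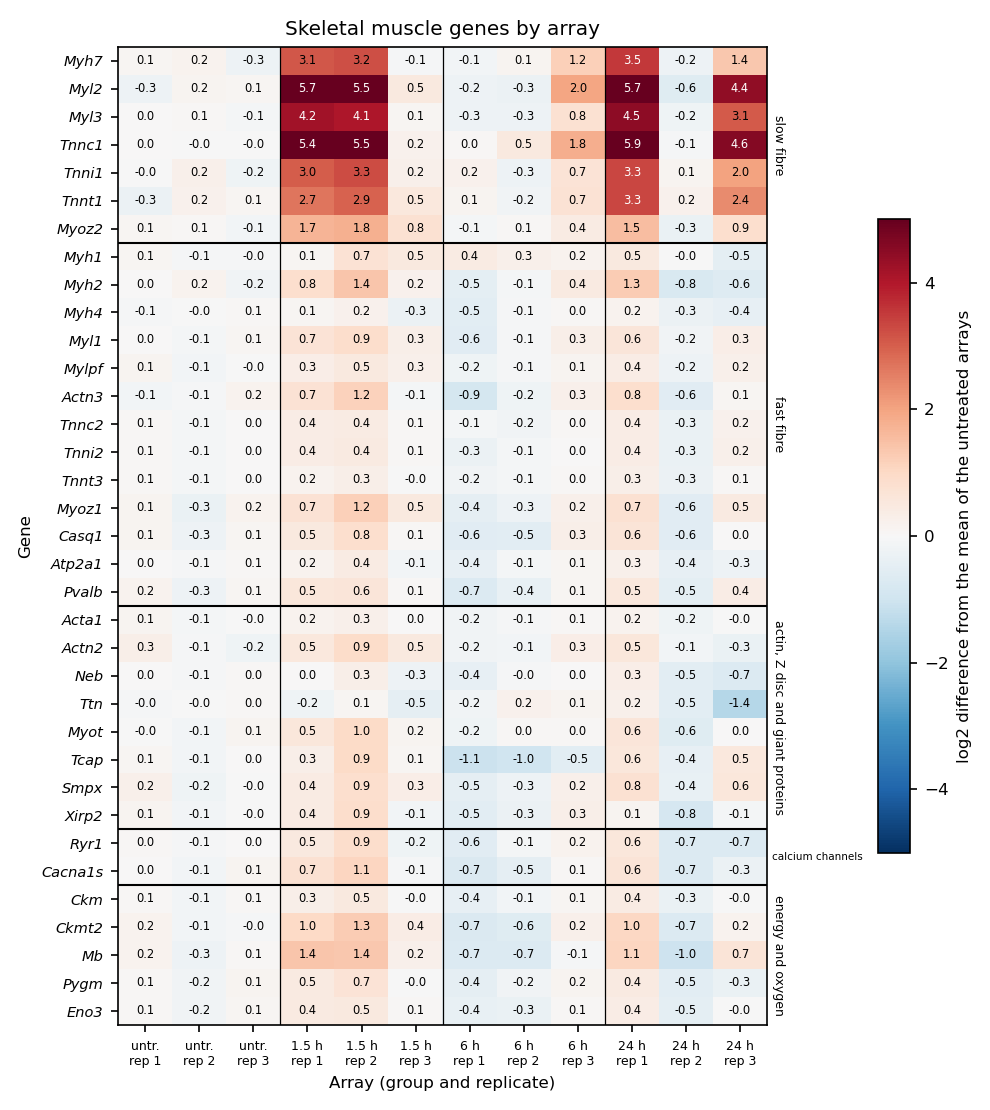
Each row is 1 of the 35 genes, grouped by role, and each column 1 array (untr., untreated; rep, replicate). Colour and number give the log2 difference from the mean of the 3 untreated arrays. The slow fibre rows are high in 1.5 h replicates 1 and 2 and 24 h replicates 1 and 3, and the fast fibre rows move much less.

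**Figure D2:**
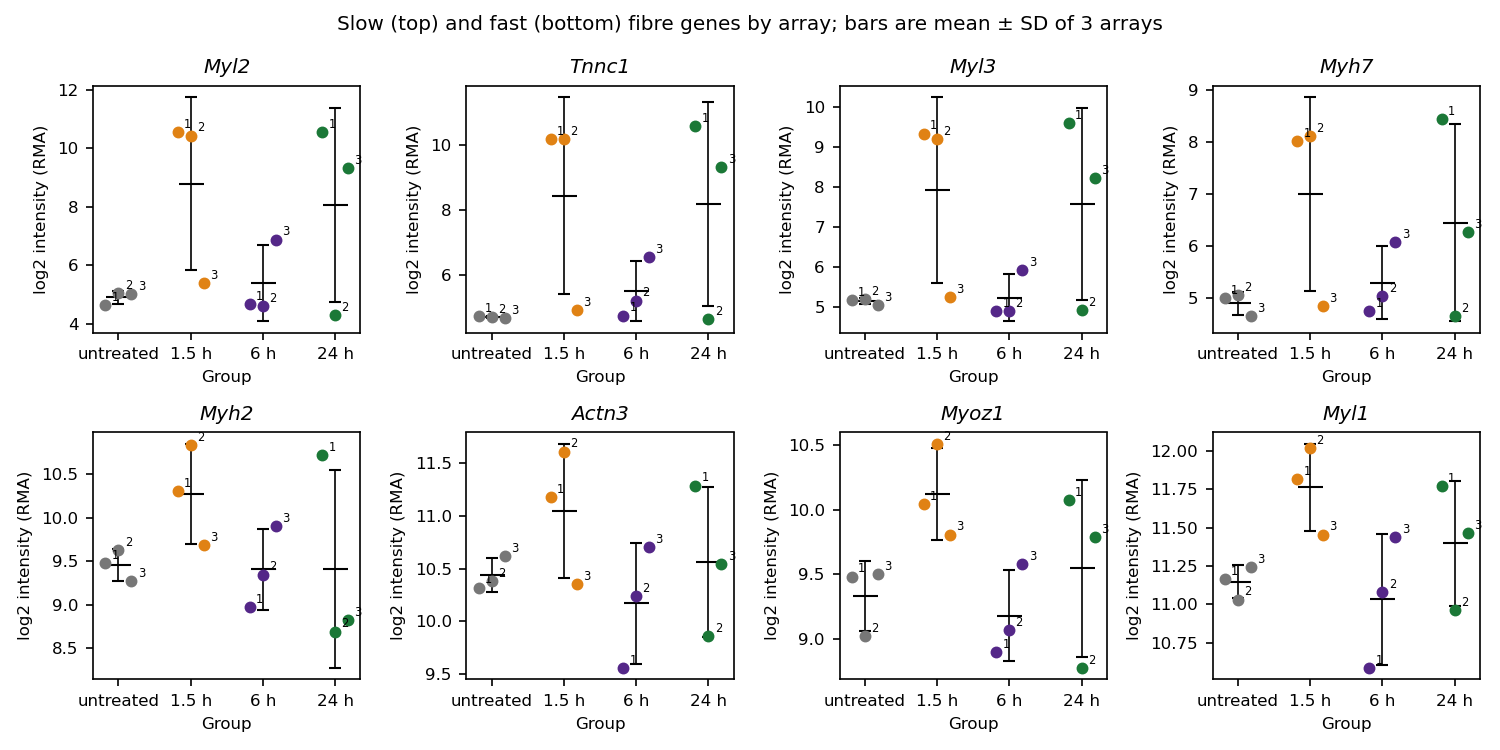
The log2 intensity of 4 slow fibre genes (top row) and 4 fast fibre genes (bottom row) is plotted by group, with 1 point per array numbered by replicate and bars for mean ± SD of 3 arrays. Vertical scales differ between panels. Myl2 ranges over 6.27 and Myl1 over 1.43.

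The fast fibre genes varied between the same libraries but over narrower ranges, from 0.62 for Tnnt3, the fast troponin T, to 2.14 for Myh2. Myh2, the myosin heavy chain of the oxidative fast class of fibres, had 9.48, 9.63 and 9.27 in untreated skin, 10.30, 10.83 and 9.69 at 1.5 h, 8.97, 9.35 and 9.90 at 6 h, and 10.72, 8.69 and 8.82 at 24 h. All 3 arrays at 1.5 h were above all 3 untreated arrays, and the 24 h arrays lay on both sides. Actn3, the Z disc alpha-actinin of fast fibres, had 10.32, 10.38 and 10.62 in untreated skin, 11.18, 11.61 and 10.35 at 1.5 h, 9.56, 10.24 and 10.71 at 6 h, and 11.29, 9.86 and 10.55 at 24 h. Its first 6 h array was the lowest of the 12.

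Myoz1, the fast fibre relative of Myoz2, gave 9.48, 9.02 and 9.50 in untreated skin, 10.04, 10.51 and 9.81 at 1.5 h, 8.90, 9.07 and 9.58 at 6 h, and 10.08, 8.77 and 9.79 at 24 h. Myl1, the fast essential light chain, gave 11.17, 11.03 and 11.24 in untreated skin, 11.81, 12.02 and 11.45 at 1.5 h, 10.59, 11.08 and 11.44 at 6 h, and 11.77, 10.96 and 11.46 at 24 h. For both genes the 1.5 h arrays lay above the untreated arrays and the 24 h arrays overlapped them. The second 1.5 h array was the highest of the 12 in 13 of 13 fast fibre genes, while the first 24 h array was the highest in 6 of 7 slow fibre genes. Ranges were 1.41 for Casq1, the calcium store protein of fast fibres, 1.29 for Pvalb, a calcium buffer, and 1.19 for Myh1. The remaining fast members, Myh4, Mylpf, Tnnc2, Tnni2 and Atp2a1 (the fast calcium pump), ranged over 0.72 to 0.80.

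Read per array, the slow fibre genes lay further from the untreated mean than the fast fibre genes in the libraries named above. The median difference of the slow fibre genes from the untreated mean was 3.12, 3.28 and 0.25 in the 3 arrays at 1.5 h, -0.10, -0.17 and 0.78 at 6 h, and 3.53, -0.22 and 2.37 at 24 h. For the fast fibre genes these medians were 0.39, 0.61 and 0.06 at 1.5 h, -0.44, -0.09 and 0.13 at 6 h, and 0.50, -0.34 and 0.10 at 24 h. In the 4 libraries with the highest slow fibre medians the slow median exceeded the fast one by 2.27 to 3.03. These are descriptions of libraries and carry no test, since the order of libraries was seen before it was summarised. A log2 difference from a level near 5 is taken from a dim probe set, whose signal can be compressed, so that the sizes of slow and fast changes are not on an equal footing. Among the fast fibre genes, those with ranges of 0.62 to 0.80 were bright, with untreated means of 11.76 to 12.46. Myh2, Myoz1 and Actn3, with ranges of 1.74 to 2.14, had untreated means of 9.33 to 10.44. Whether bright signals were compressed as well was not tested.

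**Figure D3:**
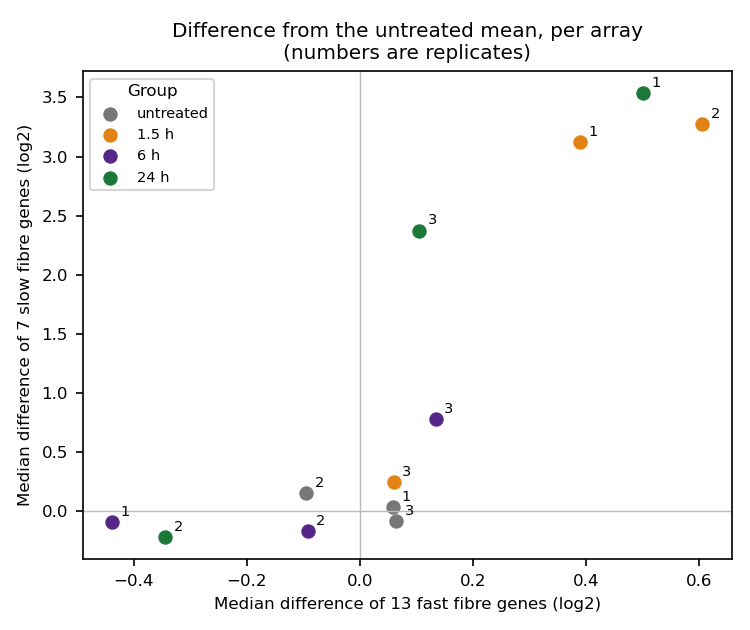
Each point is 1 array, numbered by replicate and coloured by group. The horizontal axis gives the median log2 difference from the untreated mean over 13 fast fibre genes and the vertical axis that over 7 slow fibre genes. Slow medians of 2.37 to 3.53 occur in 4 arrays while fast medians stay between -0.44 and 0.61 in all 12.

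Over all 35 genes, the same 3 libraries (1.5 h replicates 1 and 2, 24 h replicate 1) were the 3 highest in 29 genes, or 82.9%, against 542 of 19938 genes, or 2.72%, in the whole table. The lowest array was 24 h replicate 2 in 16 genes and 6 h replicate 1 in 11. The 3 libraries named as highest were picked after the values were seen, so their share describes an order and carries no test. The 35 genes thus ordered the libraries within groups as well as between them. The 24 h group held arrays at both ends: 35 of 35 genes were above all untreated arrays in 24 h replicate 1, where 29.6% of all genes were, and 30 of 35 were below all of them in 24 h replicate 2, where 31.4% of all genes were.

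The 24 h replicate 3 library combined high slow fibre genes with low values of several other members. Relative to the untreated mean, slow fibre genes were higher by 0.85 (Myoz2) to 4.58 (Tnnc1). In the same array Ttn, the giant spring protein titin, differed by -1.43 from the untreated mean, with 11.24, 11.28 and 11.32 in untreated skin, 11.07, 11.38 and 10.82 at 1.5 h, 11.12, 11.50 and 11.40 at 6 h, and 11.52, 10.77 and 9.85 at 24 h. Neb, the thin filament ruler nebulin, differed by -0.68, Ryr1, the calcium release channel, by -0.68, and Myh2 by -0.64. This array was the lowest of the 12 for 4 members, Ttn, Neb, Myh1 and Actn2, the alpha-actinin found in all fibres. Here the slow fibre genes and those of the giant proteins, Ttn and Neb, lay on opposite sides of the untreated arrays. Low values in this array were not limited to the 35 genes. In it 9 of 10 smooth muscle markers were below all untreated arrays, where 32.7% of all genes were. Of the 88 other muscle genes described below, 24 were below all untreated arrays and 35 above them. What set this library apart was not tested.

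Among the Z disc and energy genes, Tcap (telethonin), which caps titin at the Z disc, had its 3 lowest values in the 3 arrays at 6 h. It had 10.39, 10.18 and 10.33 in untreated skin, 10.59, 11.24 and 10.39 at 1.5 h, 9.24, 9.31 and 9.77 at 6 h, and 10.86, 9.88 and 10.82 at 24 h. Its 6 h arrays were below all arrays of the other groups. Mb, the oxygen carrier myoglobin, had 9.72, 9.26 and 9.60 in untreated skin, 10.92, 10.89 and 9.78 at 1.5 h, 8.85, 8.86 and 9.46 at 6 h, and 10.62, 8.49 and 10.19 at 24 h. Ckmt2, the mitochondrial creatine kinase of muscle, had 8.93, 8.62 and 8.70 in untreated skin, 9.76, 10.03 and 9.13 at 1.5 h, 8.04, 8.16 and 8.99 at 6 h, and 9.79, 8.06 and 8.92 at 24 h. For both genes the 6 h arrays lay below the 1.5 h arrays and overlapped the untreated ones.

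Cacna1s, the voltage sensor of the muscle membrane, had 8.98, 8.80 and 9.07 in untreated skin, 9.69, 10.04 and 8.87 at 1.5 h, 8.22, 8.49 and 9.01 at 6 h, and 9.58, 8.25 and 8.65 at 24 h. Xirp2, an actin-binding protein of cell junctions and Z discs, had 9.25, 9.01 and 9.12 in untreated skin, 9.54, 10.004 and 8.98 at 1.5 h, 8.59, 8.82 and 9.41 at 6 h, and 9.27, 8.28 and 9.03 at 24 h. In both, each treated group overlapped the untreated arrays. Acta1, skeletal actin, had the narrowest range of the 35 genes, 0.47, and Neb, Actn2, Myot, Smpx, Ckm (the cytosolic creatine kinase), Pygm (muscle glycogen phosphorylase) and Eno3 (muscle enolase) ranged over 0.91 to 1.56. Ryr1 ranged over 1.57.

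At 1.5 h, 0 of the 35 genes passed the test against untreated skin (limma's moderated test on all 19938 genes, Benjamini-Hochberg adjusted p under 0.05), where 2.2% of all genes passed. At an unadjusted p under 0.05, 14 were higher and 0 lower, against 8.2% and 9.31% of all genes. The 3 arrays at 1.5 h were all above the 3 untreated arrays in 17 genes, where 11.8% of all genes showed this. The median difference was 0.47 over the 35 genes and 0.02 over all genes, and 34 of 35 differences were positive. The median over the slow fibre genes was 2.18, and 6 of these 7 had no overlap with untreated skin. Myl2 averaged 8.79 ± 2.95 at 1.5 h and 4.91 ± 0.23 in untreated skin (SD, n = 3 each), a difference of 3.89 with a 95% interval of 0.71 to 7.06 and an adjusted p of 0.19 in the limma fit. Myoz2 came nearest to the threshold, with 9.31 ± 0.56 at 1.5 h and 7.90 ± 0.12 in untreated skin and an adjusted p of 0.0691 in limma. The median over the fast fibre genes was 0.41, with 3 of 13 at an unadjusted p under 0.05. The absence of calls depended on the libraries and settings used. Without 1.5 h replicate 3, limma called Tnnc1 (5.46), Myl3 (4.13), Tnni1 (3.14), Tnnt1 (2.81) and Myoz2 (1.73) higher, at adjusted p of 0.0357 to 0.0484. The third 1.5 h array had the lowest value of its group in every slow fibre gene, so leaving it out favours calls. On leaving out 24 h replicate 1 or 2, Myoz2 was called, through the shared estimate of the spread. Myoz2 was also called with array weights, when only genes above the median mean were tested, or when only the groups compared were fitted (adjusted p of 0.0306 to 0.0482 in limma).

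Some markers of other skin tissues changed at 1.5 h as well. Of 10 smooth muscle markers, 4 passed the test and were lower (Myh11, Actg2, Mylk and Myl9), where 1.59% of all genes were, and the list's median difference was -0.81 to -0.58 in the 3 arrays at 1.5 h, against -0.18 to 0.14 in the untreated arrays. Of 7 sebaceous gland markers, 3 were lower, and the array medians were -1.43 to -0.61 at 1.5 h and -0.16 to 0.17 in untreated skin. Of 6 glandular epithelium markers 2 were called higher, where 0.612% of all genes were. The array medians of the 6 were 1.72 to 3.18 at 1.5 h and -0.11 to 0.08 in untreated skin. Some smooth muscle and sebaceous genes thus fell, and some glandular genes rose, in the group where skeletal muscle genes were high in 2 of 3 arrays. For 9 adipocyte markers the array medians were -0.21 to 0.25 at 1.5 h and -0.09 to 0.10 in untreated skin. For 9 hair follicle markers they were -1.57 to -1.35 at 1.5 h and -1.41 to 2.11 in untreated skin, and for 6 lymph node and B cell markers -0.04 to 2.37 at 1.5 h and -0.05 to 0.06 in untreated skin. The part of these lists in the muscle values was not tested. Several slow fibre genes, among them Myl2, Myl3, Myh7 and Tnnc1, are also expressed in heart. Whether heart muscle had a part in their signal was not tested. The 7 cardiac markers Myh6, Myl7, Tnni3, Nppa, Nppb, Ryr2 and Mybpc3 had a mean level between 4.74 and 5.09 in every array and no value above 5.93, including the libraries with high slow fibre genes. Myh6 alone of the 7 had its 3 highest values in 1.5 h replicate 2, 24 h replicate 1 and 1.5 h replicate 1 (5.28, 5.08 and 4.74), against 3.90 to 4.54 in untreated skin, and at 1.5 h it differed by 0.61 (adjusted p = 0.146 in limma).

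**Figure D4:**
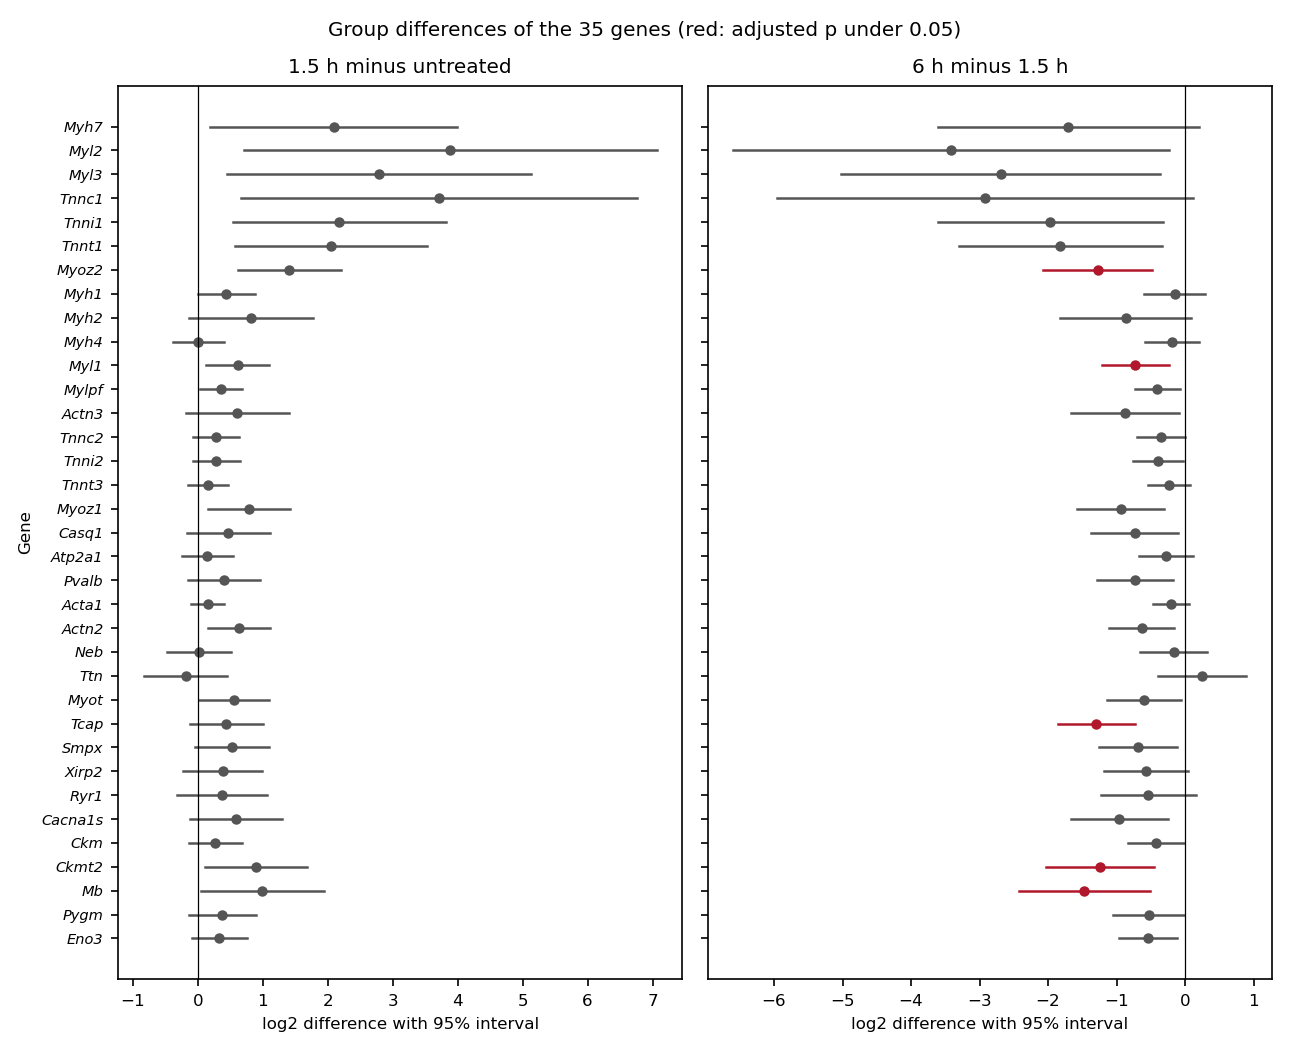
Points are the log2 differences of the 35 genes, 1.5 h minus untreated on the left and 6 h minus 1.5 h on the right, with 95% intervals from the limma fit. Red marks an adjusted p under 0.05 over all genes. On the left 0 genes are red, and on the right Myoz2, Myl1, Tcap, Ckmt2 and Mb are.

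At 6 h, again 0 of 35 genes passed against untreated skin by limma, where 6.09% of all genes did. At an unadjusted p under 0.05, 1 gene, Tcap, was lower, where 14% of all genes were. It averaged 9.44 ± 0.29 at 6 h and 10.30 ± 0.11 in untreated skin (SD, n = 3 each), a difference of -0.86 with an adjusted p of 0.0717 in limma. It was called when only these arrays were fitted (adjusted p = 0.0136), on leaving out 1.5 h replicate 2 (adjusted p = 0.049) and on leaving out 24 h replicate 2 (adjusted p = 0.0262). The 6 h arrays were all below the untreated arrays for Tcap alone, where 19.3% of all genes showed this, and all above them for Tnnc1 and Myh1, where 11.4% did. The median difference over the 35 genes was -0.11, against -0.04 over all genes, and 25 differences were negative. The slow fibre median was 0.23 and the fast fibre median -0.11.

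Between 6 h and 1.5 h, 5 of 35 genes were lower and 0 higher by limma, where 7.8% of all genes were lower, 5.47% higher and 13.3% changed in either direction. Tcap fell to 9.44 ± 0.29 at 6 h, against 10.74 ± 0.45 at 1.5 h (SD, n = 3 each), a difference of -1.30 ± 0.26 (SE) with an adjusted p of 0.00747. Mb averaged 9.06 ± 0.35 at 6 h and 10.53 ± 0.65 at 1.5 h, a difference of -1.47 with an adjusted p of 0.0436 in limma. Myoz2 differed by -1.27 (adjusted p = 0.0381), Ckmt2 by -1.25 (adjusted p = 0.04) and Myl1 by -0.73 (adjusted p = 0.0497), all from limma. The called genes thus came from 4 of the 5 roles, and the calcium channels gave none. In all, 22 genes were lower at an unadjusted p under 0.05, where 18.5% of all genes were. The 6 h arrays were all below the 1.5 h arrays in 12 genes, where 19.8% of all genes showed this. The median difference was -0.69, against -0.03 over all genes, and Ttn was the 1 gene with a positive difference, 0.25.

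Of these calls, that of Tcap was kept in 27 of 27 alternatives, with adjusted p between 0.00184 and 0.0484. The calls of Mb, Myoz2, Ckmt2 and Myl1 were lost in 12 to 17 of 27. Without 1.5 h replicate 1, 1.5 h replicate 2, 6 h replicate 1, 6 h replicate 2 or untreated replicate 3, Tcap was the 1 gene left, and it was also the 1 gene left without the 2 libraries high in lymph node genes (-1.27, adjusted p = 0.0391). Without untreated replicate 1 the count was 2, and without untreated replicate 2 it was 3. Without 1.5 h replicate 3 the count was 12, including all 7 slow fibre genes. Without 24 h replicate 2 it was 11, and without 24 h replicate 1 it was 8, through the shared estimate of the spread. With arrays centred on their medians, under which the median of all genes was -0.17 in this comparison in place of -0.03, 13 genes were called.

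At 24 h, 0 of 35 genes passed against untreated skin by limma, where 3.36% of all genes did, and 0 genes had 24 h arrays all above or all below the untreated ones, where 10.9% and 12.4% of all genes did. At an unadjusted p under 0.05, 4 were higher, all of them slow fibre genes (Myl3, Tnnc1, Tnni1, Tnnt1), where 8.27% of all genes were. Tnnc1 averaged 8.19 ± 3.11 at 24 h and 4.73 ± 0.03 in untreated skin (SD, n = 3 each), a difference of 3.46 with a 95% interval of 0.42 to 6.50 and an adjusted p of 0.231 in limma. The medians were 1.97 over the slow fibre genes, 0.07 over the fast fibre genes, 0.07 over all 35 and 0.00 over all genes. The median over the 35 was -0.17 without 24 h replicate 1 and 0.31 without 24 h replicate 2, so its sign rested on 1 library. Without 24 h replicate 2, limma called Tnnc1 (5.22), Myl2 (5.04), Tnnt1 (2.85) and Myoz2 (1.19) higher, at adjusted p of 0.0193 to 0.0495. Without 24 h replicate 1 it called Ttn lower, by -0.97 (adjusted p = 0.0463). Markers of other tissues differed at 24 h as well. Of 6 glandular markers 1 was called higher, where 2.55% of all genes were. The list median was 2.00 and the array medians 1.70 to 2.34 at 24 h, with the 24 h arrays of all 6 genes above the untreated ones. Of 7 sebaceous markers 1 was called lower, where 161 of 19938 genes were, and the list median was -0.67. The smooth muscle median was -0.11, -0.09 and -0.74 in the 3 arrays at 24 h, lowest in replicate 3, and 0 of 10 genes were called. The part of these lists in the muscle values at 24 h was not tested.

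Between 24 h and 6 h, Tcap was the 1 gene of 35 that changed. It averaged 10.52 ± 0.56 at 24 h and 9.44 ± 0.29 at 6 h (SD, n = 3 each), a difference of 1.08 with an adjusted p of 0.0412 in limma, where 2.03% of all genes were higher and 3.44% changed in either direction. This call was lost in 16 of 27 alternatives, among them leaving out any untreated array, any 6 h array or 24 h replicate 1 or 3 (adjusted p up to 0.172), and without 24 h replicate 2 the count was 3. At an unadjusted p under 0.05, 3 genes were higher, where 13.3% of all genes were. The median over the 35 genes was 0.21, against 0.02 over all genes. Between 24 h and 1.5 h, 0 of 35 genes passed by limma, where 2.91% of all genes did, and 3 were lower at an unadjusted p under 0.05 (Actn2, Myot and Xirp2), where 7.96% of all genes were. Without 24 h replicate 1 the count was 2. The median was -0.37 and all 35 differences were negative, against a median of -0.01 over all genes. By limma's moderated F test, which joins the 3 times, Tcap passed (adjusted p = 0.0221) and no other of the 35 genes did, where 11.4% of all genes passed. An unadjusted p under 0.05 in that test was reached by 12 of the 35, a share similar to the 6232 of all 19938 genes. The number passing was 0 without 6 h replicate 1 or 2, while it was 6 on leaving out 24 h replicate 1, 7 on leaving out 1.5 h replicate 3 and 11 on leaving out 24 h replicate 2.

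A list of 88 other genes of skeletal muscle was read beside the 35. In 61 of them, 69.3%, the 3 highest arrays were again 1.5 h replicates 1 and 2 and 24 h replicate 1. The median difference at 1.5 h was 0.46, close to the 0.47 of the 35 genes, and the 6 genes with the widest ranges were Ampd1 (muscle AMP deaminase) at 2.59, Ankrd23 at 2.19, Fabp3 (a fatty acid carrier) at 2.00, Ankrd2 at 1.96, Csrp3 and Mybph (a myosin-binding protein) at 1.93. Against untreated skin at 1.5 h, limma called 3 of the 88 higher and 0 lower, where 0.612% of all genes were higher. Csrp3, the Z disc protein MLP, averaged 9.95 ± 0.41 at 1.5 h and 8.57 ± 0.21 in untreated skin (SD, n = 3 each), a 2.61-fold difference (log2 1.39, adjusted p = 0.0298). Hspb7, a small heat shock protein of muscle, was 1.99-fold higher (adjusted p = 0.0364 in limma) and Myl4, the embryonic and atrial light chain, 1.76-fold higher (adjusted p = 0.0319 in limma). For each of the 3 genes the arrays at 1.5 h were all above the untreated arrays. These 3 calls were lost without the 2 libraries high in lymph node genes (adjusted p of 0.0752 to 0.118), and 0 genes were called without 1.5 h replicate 1 or 2 or untreated replicate 2 or 3. Without 1.5 h replicate 3 the count was 9, without 24 h replicate 2 it was 8 and without 24 h replicate 3 it was 5.

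At 6 h, 3 of the 88 changed against untreated skin, 1 higher and 2 lower, where 3.38% of all genes were higher and 2.71% lower. Ankrd1 (CARP), a stress-responsive titin-binding ankyrin repeat protein, had 3.86, 4.03 and 4.11 in untreated skin, 4.61, 4.18 and 4.36 at 1.5 h, 5.31, 5.42 and 4.74 at 6 h, and 4.72, 4.86 and 4.72 at 24 h. Its 3 treated groups lay above all untreated arrays, and it did not share the order of libraries seen in the slow fibre genes. It was 2.23-fold higher at 6 h than in untreated skin (adjusted p = 0.000625 in limma) and 1.70-fold higher at 24 h (adjusted p = 0.0206 in limma), where 2.55% of all genes were higher. The 6 h call was lost when values were raised to a floor of 5 (adjusted p = 0.16), and the 24 h call in 8 of 27 alternatives, among them without untreated replicate 1 or 2 or any 24 h array (adjusted p up to 0.0815). Ankrd1 is also expressed outside muscle, and its mean in untreated skin, 4.001 ± 0.13, lay below that floor. The count at 6 h was 5 without 24 h replicate 1.

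Fbxo32, the ubiquitin ligase atrogin-1 that tags muscle proteins for breakdown, had 9.21, 8.81 and 8.72 in untreated skin, 8.65, 8.67 and 8.64 at 1.5 h, 8.16, 8.20 and 8.25 at 6 h, and 8.92, 8.71 and 8.59 at 24 h. Like Ankrd1, it did not share the order of libraries seen in the slow fibre genes, and untreated replicate 1 was its highest array. It fell to 8.20 ± 0.05 at 6 h, against 8.92 ± 0.26 in untreated skin (SD, n = 3 each), a difference of -0.71 (adjusted p = 0.00469 in limma) that was called in 28 of 28 alternatives. The 6 h arrays were below every other array, and limma also called Fbxo32 higher at 24 h than at 6 h, by 0.53 (adjusted p = 0.0414), a call lost in 17 of 27 alternatives, among them leaving out any single array at 1.5 h, 6 h or 24 h (adjusted p up to 0.15 over those 17). Mstn, the muscle growth inhibitor myostatin, had 9.85, 9.28 and 9.79 in untreated skin, 9.09, 9.54 and 9.25 at 1.5 h, 8.75, 8.64 and 9.05 at 6 h, and 8.83, 8.87 and 9.29 at 24 h. Its highest arrays were untreated replicates 1 and 3, so it did not share the order of the slow fibre genes either. Mstn fell by 0.83 at 6 h relative to untreated skin (adjusted p = 0.0164 in limma). This call was lost in 6 of 28 alternatives. Among them were leaving out the first or the third untreated array or the second 6 h array (adjusted p of 0.0739 to 0.0768 in limma).

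**Figure D5:**
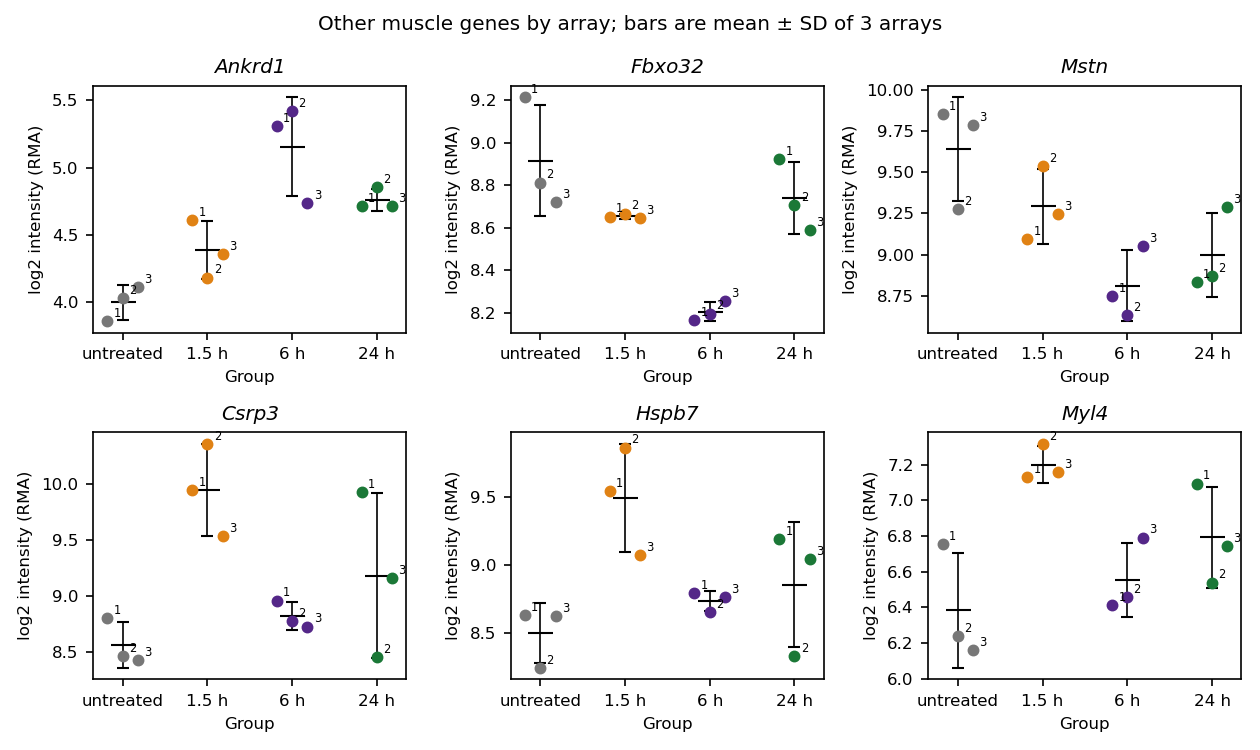
Log2 intensity of the 6 other muscle genes called against untreated skin is plotted by group, with 1 point per array numbered by replicate and bars for mean ± SD of 3 arrays. Vertical scales differ between panels. All 6 h arrays of Fbxo32, at 8.16 to 8.25, lie below its other arrays, and Ankrd1 reaches 5.42 at 6 h.

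When the mean of the 35 genes in each array was entered as a covariate, a fit chosen after seeing the data, Ankrd1, Fbxo32 and Mstn kept their calls at 6 h (1.14, -0.70 and -0.82, adjusted p of 0.000824 to 0.0217 in limma). Lmod3, Jph1, Hrc and Clcn1 were then lower at 6 h as well. The calls of Csrp3, Hspb7 and Myl4 at 1.5 h were lost in that fit, and Cmya5 was called lower at 24 h (-0.51, adjusted p = 0.0228). The covariate is itself a muscle measurement on the same arrays, so this fit compares muscle genes with each other.

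Between 6 h and 1.5 h, 29 of the 88 genes were lower, where 7.8% of all genes were, and 1, Ankrd1 (0.77, adjusted p = 0.0107 in limma), was higher. Of the lower ones, 4 belonged to the sarcomere, 7 to calcium handling and excitation, 8 to metabolism, 6 to the membrane and costamere, 2 to the myogenic factors and 2 to the embryonic isoforms. The metabolic genes included Fabp3 (-1.30), Cox7a1 (-1.24), a muscle subunit of cytochrome oxidase, and Slc2a4 (-0.82), the insulin-responsive glucose transporter. The myogenic factors were Myod1 (-0.65) and Vgll2 (-1.04). In the sarcomere list, Lmod2 (-1.19) and Lmod3 (-1.23), which nucleate thin filaments, were lower, and so were Csrp3 (-1.13) and Ldb3 (-0.82). The count of 30 depended on single libraries: leaving out 1.5 h replicate 1, 2 or 3 gave 4, 2 or 53, and leaving out 6 h replicate 1 or 2 gave 11 or 2. Markers of other tissues differed in the same comparison in both directions, where 5.47% of all genes were called higher and 7.8% lower. Of 10 smooth muscle markers 4 were called higher at 6 h (list median 0.34), as were 2 of 7 sebaceous markers (0.69). Of 6 glandular markers 1 was called lower (list median -1.50, with 6 of 6 negative), as was 1 of 9 adipocyte markers (-0.42, with 8 of 9 negative). Relative to the untreated mean, the glandular array medians at 6 h were 3.14, -0.31 and -0.24. The adipocyte ones were 0.16, -0.69 and -0.66. In both lists 6 h replicate 1 thus did not share the low values of the other 6 h arrays. The part of these tissues in the result was not tested. Between 24 h and 6 h limma called 1 of the 88 genes, Fbxo32, where 3.44% of all genes were called. Between 24 h and 1.5 h it called 0, where 2.91% of all genes were called. In the latter, 1 was higher and 23 lower at an unadjusted p under 0.05, where 7.66% and 7.96% of all genes were.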

How the data were processed

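Total RNA of skin biopsies was amplified and hybridised to Affymetrix Mouse Gene 1.0 arrays, 1 per biopsy. The deposited values are log2 intensities. Per the submitters' processing notes the authors used the RMA method of Expression Console 1.1, an Affymetrix program. RMA subtracts background, normalizes between arrays and summarises probes, which compresses dim signals. The build behind the probe annotation is not given in the sources used here. Of 35556 probe sets, 21789 had 1 gene symbol in the platform annotation, 1621 had several and 12146 were not listed. The probe set with the highest mean stood for each of 19938 genes. All 35 muscle genes matched RefSeq by gene ID.

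Differences were tested with limma 3.58.1 in R 4.3.3 (lmFit and eBayes), with the 4 groups fitted together (8 residual and 5.24 prior degrees of freedom) and Benjamini-Hochberg adjustment over all genes at 0.05. The fit was checked on simulated data. With 3 arrays a group, the number of arrays limits the precision. Array weights, prior variance, normalization, filters, thresholds and libraries left out were varied. Per-array values are given for the called genes and for the 4 slow fibre, 4 fast fibre and 5 other members with the widest range. Other muscle genes are named where called against untreated skin, among the 6 with the widest range, or, in the comparison of 6 h with 1.5 h, as examples chosen after their values were seen, as Ttn was. The lists of other muscle genes and of smooth muscle, heart, sebaceous, glandular, adipocyte, hair follicle and lymph node markers, and the 35 members, were chosen with earlier results of these data known. Promoter windows are RefSeq's on GRCm38.p6, and the motifs and the 4 windows were chosen after the values were seen. Replicate numbers were not taken as pairs in the main fit. Deviations of equally numbered arrays from their group means correlated at -0.22 to 0.33 over 18 pairs (median 0.05). For unequally numbered arrays of different groups this was -0.28 to 0.24 over 36 pairs (median 0.005). The highest value, 0.33, was that of 1.5 h replicate 1 with 6 h replicate 1, the libraries high in lymph node genes.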

Additional observations from a re-analysis of the deposited data

Results flagged for a closer look

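These genes differed between 2 treated time points by a test of that difference itself (limma, adjusted over all genes), so their differences from the shared untreated arrays were not alike. At 6 h relative to 1.5 h, Tcap differed by -1.3 (adjusted p = 0.00747), Mb by -1.47 (adjusted p = 0.0436), Myoz2 by -1.27 (adjusted p = 0.0381), Ckmt2 by -1.25 (adjusted p = 0.04) and Myl1 by -0.73 (adjusted p = 0.0497). Of 27 alternatives, 0 lost the call for Tcap, 15 for Mb, 12 for Myoz2, 12 for Ckmt2 and 17 for Myl1. For each of the 5, the 3 arrays at 6 h were below the 3 arrays at 1.5 h.

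Of the other muscle genes, Csrp3 differed by -1.13 (adjusted p = 0.0244), Hspb7 by -0.76 (adjusted p = 0.0404), Myl4 by -0.65 (adjusted p = 0.0295) and Fbxo32 by -0.45 (adjusted p = 0.0376) at 6 h relative to 1.5 h in limma. Of 27 alternatives, 8 lost the call for Csrp3, 12 for Hspb7, 9 for Myl4 and 12 for Fbxo32. Ankrd1 differed by 0.77 in the same comparison (adjusted p = 0.0107), lost in 4 of 26 alternatives. At 24 h relative to 6 h, Tcap differed by 1.08 (adjusted p = 0.0412) and Fbxo32 by 0.53 (adjusted p = 0.0414) in limma, calls lost in 16 and 17 of 27 alternatives, and both had all 24 h arrays above all 6 h arrays.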

How the results depend on the processing

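Among the 35 genes, leaving out 1 library gave counts of 0 to 5 at 1.5 h, 0 to 1 at 6 h and 0 to 4 at 24 h against untreated skin, 1 to 12 for 6 h against 1.5 h, 0 to 3 for 24 h against 6 h, 0 to 2 for 24 h against 1.5 h and 0 to 11 in the F test. Array weights gave 1 call at 1.5 h. Testing only genes above the median mean, or fitting only the groups compared, gave 1 at 1.5 h and 1 at 6 h. The 5 calls between 6 h and 1.5 h became 1 without the lymph node libraries, 2 with a robust prior, 1 without moderation, 13 with median centring, 3 with quantile normalization, 1 with cyclic loess, 9 above the median mean, 1 with the floor of 5 and 1 at an adjusted p under 0.01. The 1 call between 24 h and 6 h became 0 with the replicate block, without the lymph node libraries, without moderation, with quantile normalization, cyclic loess, the floor, the stricter threshold or only the groups compared. The F test gave 0 without the lymph node libraries, without moderation, with the floor or the stricter threshold, and 2 with array weights, median centring or genes above the median mean. Among the 88 other genes, leaving out 1 library gave 0 to 9 calls at 1.5 h, 2 to 5 at 6 h, 0 to 1 at 24 h, 2 to 53 for 6 h against 1.5 h, 0 to 5 for 24 h against 6 h and 0 to 6 for 24 h against 1.5 h. The 3 calls at 1.5 h became 0 without the lymph node libraries, without moderation, with the floor, the stricter threshold or the muscle covariate, and 5 with only the groups compared. The 3 at 6 h became 1 with the floor, 5 with only the groups compared and 7 with the covariate. The 1 at 24 h became 0 without moderation, above the median mean, with the floor or the stricter threshold, and 2 with array weights or the covariate. The 30 between 6 h and 1.5 h became 2 without the lymph node libraries, without moderation or at the stricter threshold, 4 with the floor, 14 with cyclic loess and 58 with median centring. The 1 between 24 h and 6 h became 0 without the lymph node libraries, without moderation, with quantile normalization, cyclic loess, the floor, the stricter threshold or only the groups compared, 2 with an intensity trend or array weights, 3 above the median mean and 4 with median centring. The 0 between 24 h and 1.5 h became 1 with the replicate block, an intensity trend, a robust prior, cyclic loess or genes above the median mean. The replicate block changed no other count by more than 1.5 times. The median difference of the 35 genes ranged from 0.31 to 0.68 at 1.5 h, -0.27 to -0.00 at 6 h and -0.17 to 0.31 at 24 h, where it turned negative without 24 h replicate 1. No difference of a single named gene that was recomputed changed sign. The causes were not tested. With 3 arrays a group, the number of arrays limits the precision: the 95% interval of the difference of Myl2 at 1.5 h ran from 0.71 to 7.06.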
